A study of Mus musculus with 12 samples.

Results

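Whole mouse embryonic lungs in which a soluble FGFR2b had been induced for 9 h were compared with control lungs on microarrays. The comparison uses 6 of the 12 arrays of the series, 3 labelled loss of function (LOF) after 9 h of doxycycline and 3 labelled control, and takes in all 20738 genes named on the array. The LOF lungs carried, in the spelling of the labels, Rosa26rtTAtet(O)solubleR2b, that is, the transactivator rtTA at Rosa26 and a doxycycline-inducible soluble FGFR2b. The labels give the strain C57bl/6J for all lungs and the methods of the study give the stage E12.5. The methods describe 1 doxycycline injection into the pregnant mother and 1 lung per array. Because rtTA is made throughout the body from Rosa26, the soluble receptor was not confined to the lung epithelium. The labels call the control lungs wild-type and untreated. The study instead describes doxycycline-treated littermates that carried rtTA alone, with 2 controls taken at 6 h and 1 at 9 h. The files do not settle this, so an effect of doxycycline, rtTA or collection time cannot be told apart from that of the soluble receptor in the comparison with control. The remaining 6 arrays, LOF lungs after 6 h and lungs labelled gain of function (GOF), with an inducible Fgf10, after 9 h of doxycycline, with 3 arrays each, entered the fit for the shared spread and 2 further comparisons. The labels speak of replicates without naming litters, so the tests measure the spread between these arrays only.

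FGF10 is made by the mesenchyme of the lung and binds FGFR2b, the epithelial splice form of the receptor FGFR2. The receptor signals through the MAP kinase cascade to ETS transcription factors and to feedback inhibitors such as the Sprouty proteins, and it keeps the cells at the tips of the growing buds proliferating and undifferentiated. The soluble form lacks the part that anchors and signals, and it captures FGFR2b ligands outside the cell. The epithelium also sends signals back, among them Sonic hedgehog, which acts on the mesenchyme.

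Every array had the same distribution of log2 intensity, with a median of 2.98. The mean correlation of an array with the others of its group lay between 0.982 and 0.986. General epithelial genes had mean log2 levels of 7.84 to 7.98 on control and 7.78 to 7.96 on LOF 9 h arrays, and lung mesenchyme genes 9.97 to 10.11 and 10.04 to 10.13, so markers of both layers of the labelled tissue were present. The heart list ranged from 5.99 to 6.89 on control and from 5.99 to 6.87 on LOF 9 h arrays. Liver genes read between 3.18 and 3.88 over both groups. Xist, which is expressed from the inactive X chromosome of female cells, read 5.96, 2.11 and 5.94 on control arrays 1, 2 and 3 and 6.18, 5.51 and 6.35 on the LOF 9 h arrays. By this gene 1 control lung stood apart from the other 5 of the comparison. It read 2.37, 2.20 and 1.94 in LOF 6 h lungs and 1.93, 6.21 and 5.53 in lungs labelled GOF. With the level of Y-linked genes as a covariate 11 of the 15 calls below were made, without Bex4, Capn9, Dusp9 and Enc1.

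Induction was looked for first. In the 31511 features without a gene name, 2 differed between LOF 9 h and control lungs, 0.00635% of those tested. The first, array feature 23436, read 2.18, 2.44 and 2.54 on the control arrays and 10.80, 10.59 and 10.47 on the LOF 9 h arrays. It read 11.71, 11.91 and 11.81 in LOF lungs after 6 h and 1.95, 3.08 and 2.68 in GOF lungs. All 6 arrays with the soluble receptor were thus far above the 6 arrays without it, and the groups did not overlap. The difference from control was 8.23 ± 0.29 (standard error, n = 3 arrays per group, limma adjusted p = 1.84e-08). All 3 control values were under the array median, which leaves the size of this difference uncertain. Against GOF lungs, which had doxycycline for the same time, it was 8.05 ± 0.29 (adjusted p = 2.43e-08). Between 9 h and 6 h the feature stood at -1.19 ± 0.29 (adjusted p = 0.203). Its sequence and target were not analysed here, and whether it reads the transgene was not tested. The second, feature 35500, read 3.20, 4.28 and 2.41 in control and 6.60, 6.76 and 6.34 in LOF 9 h lungs (3.27 ± 0.41, adjusted p = 0.043), and stood 2.54 ± 0.41 above GOF lungs (adjusted p = 0.147). Its call against control was lost in 10 of 12 fits with 1 array left out (adjusted p from 0.00393 to 0.387), that of feature 23436 in 0.

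**Figure D1:**
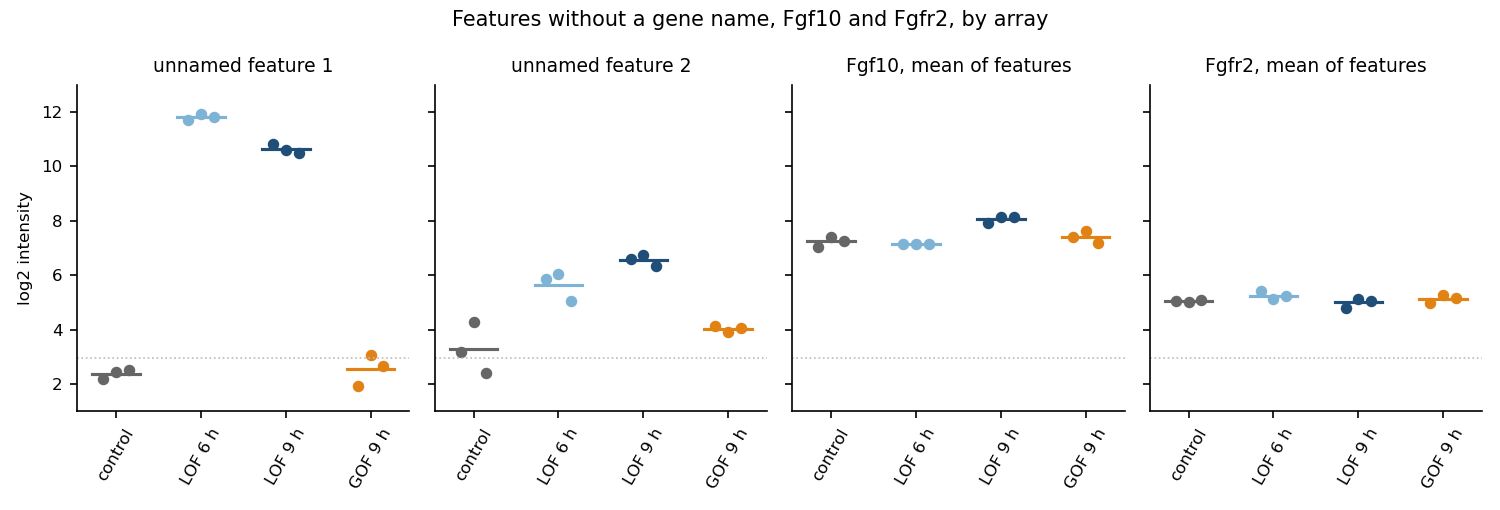
Log2 intensity on each array (points) with group means (bars) for the 2 features without a gene name that differed from control (1 is feature 23436, 2 is feature 35500), and for the means over the 10 features of Fgf10 and the 11 of Fgfr2. The dotted line is the array median of 2.98, and unnamed feature 1 lies above 10 in all 6 LOF lungs and at or below 3.08 elsewhere.

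The ligand and the receptor genes themselves were read by several features. Over the 10 features of Fgf10 the mean level was 7.04, 7.42 and 7.26 on control and 7.90, 8.14 and 8.12 on LOF 9 h arrays. It was 7.42, 7.64 and 7.17 in lungs labelled GOF, which overlapped with control, so a raised Fgf10 was not seen in them. Whether these features read the inducible Fgf10 was not tested. The LOF 9 h arrays were above those of control, without overlap, and the difference was 0.81 ± 0.15 (adjusted p = 0.15). The single feature used for the test stood at 0.52 ± 0.24 (adjusted p = 0.637). Fgfr2, averaged over its 11 features, differed from control by -0.06 ± 0.14 (adjusted p = 0.969). Of 22 FGF ligand genes 0 passed, and 9 of them read below the array median in both groups.

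Of the 20738 genes 15 differed from control after Benjamini-Hochberg adjustment over all genes (limma, adjusted p under 0.05), or 0.0723%. Of these, 4 were higher (0.0193%) and 11 lower (0.053%). The higher genes were Cym, Pnliprp1, Capn9 and Upk3a. The lower genes were Sftpc, Tspan8, Etv5, Sp5, Lin7a, Tmem59l, Gprc5a, Bex4, Enc1, Gli1 and Dusp9. In all 15 the 3 LOF 9 h arrays lay on one side of the 3 control arrays. Over all genes this was so for 7.61% on the higher and 7.83% on the lower side. At an unadjusted p under 0.05, 3.75% of all genes were higher and 4.17% lower. These shares are the background for the counts of list members below. The median change over all genes was -0.000. In whole lungs, fewer cells of a type and less RNA per cell cannot be told apart.

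**Figure D2:**
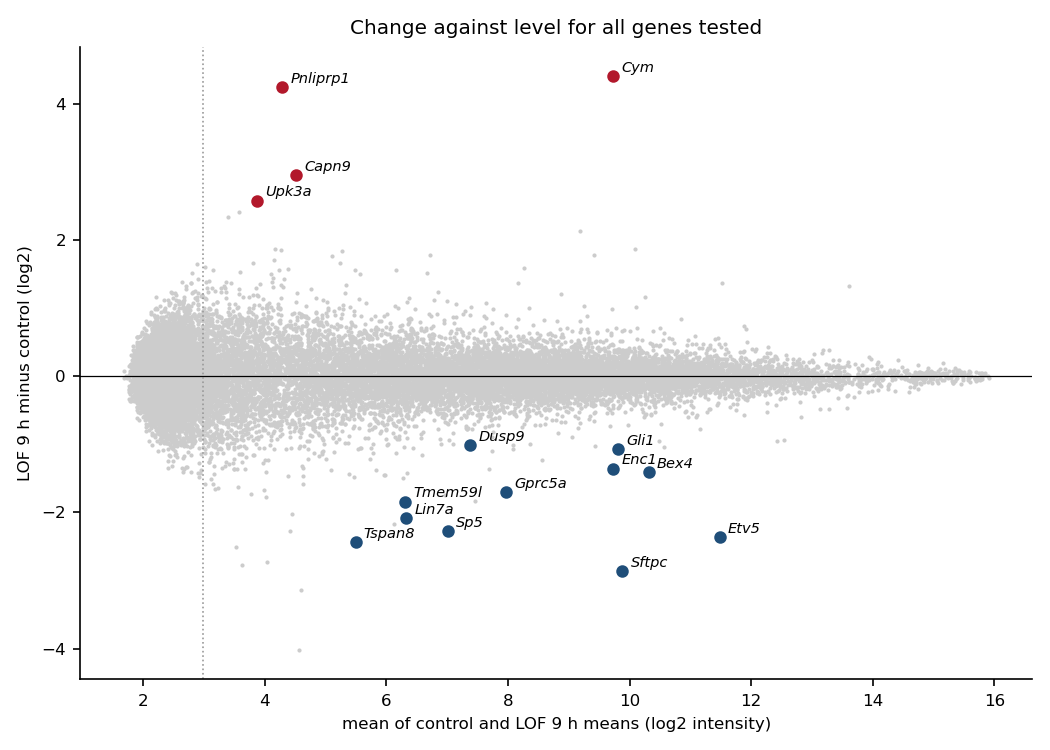
LOF 9 h minus control on the log2 scale (vertical) against the mean of both group means (horizontal) for all 20738 genes in grey, with the 11 lower genes in blue and the 4 higher genes in red. The dotted line marks the array median of 2.98. The lower genes span the range of levels from Tspan8 to Etv5, and Pnliprp1, Capn9 and Upk3a start near the low end.

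**Figure D3:**
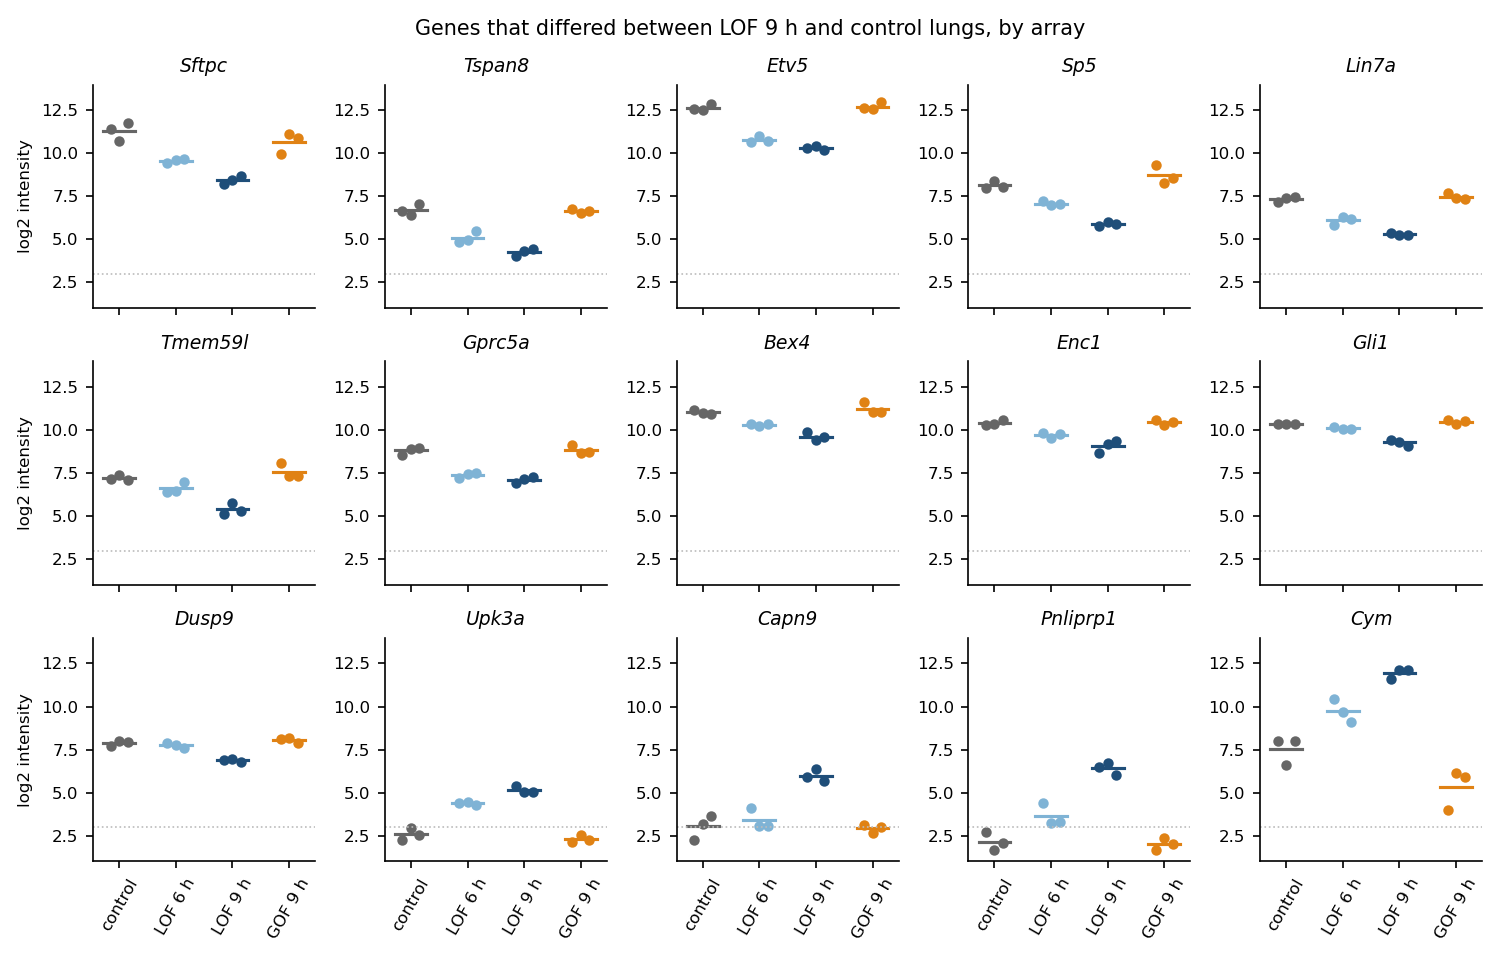
Log2 intensity of the 15 genes on each of the 12 arrays (points) with group means (bars) in control, LOF 6 h, LOF 9 h and GOF 9 h lungs. The dotted line is the array median of 2.98. In every gene the LOF 9 h points do not overlap those of control lungs, nor those of GOF lungs.

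The genes that answer FGF signalling most directly were led by Etv5 (gene 104156), an ETS transcription factor of the PEA3 family that FGF10 induces at the bud tips. It read 12.58, 12.54 and 12.87 on the control arrays and 10.29, 10.40 and 10.21 on the LOF 9 h arrays. Etv5 thus had a high level in control lungs and a narrow spread in both groups, and it fell by 2.36 ± 0.16 (adjusted p = 0.000639), the smallest adjusted p of all genes. Its relative Etv4 read 9.22, 9.21 and 9.11 against 7.55, 8.20 and 8.10. The groups of Etv4 did not overlap, but the difference of -1.23 ± 0.36 did not pass (adjusted p = 0.376). Etv1, the third member of the family, stood at 0.29 with overlapping groups. Dusp9 (75590), a phosphatase that removes the activating phosphates of MAP kinases, read 7.73, 7.99 and 7.92 in control and 6.88, 6.93 and 6.80 in LOF 9 h lungs and fell by 1.01 ± 0.14 (adjusted p = 0.0306). It was the only one of 11 dual-specificity phosphatases to pass, and the median of that list was 0.06. Dusp8 stood on the other side, at 1.04 ± 0.24 (adjusted p = 0.258), and Dusp6, a usual target of ERK, at -0.17 ± 0.19 (adjusted p = 0.896).

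The Sprouty, Spred and Sef genes encode inhibitors that FGF receptors switch on against their own signal. Of 8 measured, 7 stood below 0 and 0 passed, with a median of -0.38. Spry1 read 8.80, 8.41 and 8.64 in control and 7.82, 7.92 and 8.0 in LOF 9 h lungs (-0.70 ± 0.16, adjusted p = 0.258). Spred1 stood at -0.46 ± 0.17 (adjusted p = 0.525). The groups of both did not overlap. Spry2 ranged from 3.38 to 5.11 in control and from 2.15 to 3.58 in LOF 9 h lungs, so its arrays overlapped at a low level (-1.32 ± 0.58, adjusted p = 0.622). Of 20 immediate early genes, which ERK induces within minutes, 10 were below and 10 above 0, and none passed in limma (0 called, 3 at an unadjusted p under 0.05, 1 of them lower). Jun was highest among them at 0.74 ± 0.25 (adjusted p = 0.474).

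The bases just before the transcription start are shown for Etv5, Sp5, Lin7a and Cym, of which the first 3 were among the genes with the most stable falls and Cym had the largest rise. The sequences are RefSeq's for GRCm38.p6, 250 bases on the gene's strand from 5′ to 3′ ending at the base before a start. The capitals mark motif letters found on either strand. Etv5 is at chr16:22438369-22438618 on the minus strand (1 of 2 annotated starts), Sp5 at chr2:70474673-70474922 on the plus strand, Lin7a at chr10:107272144-107272393 on the plus strand (1 of 2 starts) and Cym at chr3:107221733-107221982 on the minus strand.
Etv5: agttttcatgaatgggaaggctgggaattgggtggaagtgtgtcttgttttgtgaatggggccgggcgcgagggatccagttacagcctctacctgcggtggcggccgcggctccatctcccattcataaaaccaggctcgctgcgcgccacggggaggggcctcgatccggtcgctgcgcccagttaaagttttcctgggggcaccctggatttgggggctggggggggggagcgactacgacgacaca
Sp5: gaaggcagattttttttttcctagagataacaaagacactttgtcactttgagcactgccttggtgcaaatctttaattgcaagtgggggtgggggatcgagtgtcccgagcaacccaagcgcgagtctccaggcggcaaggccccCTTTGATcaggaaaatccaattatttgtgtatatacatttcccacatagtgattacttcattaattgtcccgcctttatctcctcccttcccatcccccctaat
Lin7a: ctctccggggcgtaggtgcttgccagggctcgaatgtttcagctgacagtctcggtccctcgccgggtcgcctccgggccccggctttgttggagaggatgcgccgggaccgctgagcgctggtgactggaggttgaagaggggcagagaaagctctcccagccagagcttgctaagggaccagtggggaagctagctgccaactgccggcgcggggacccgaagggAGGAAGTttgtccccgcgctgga
Cym: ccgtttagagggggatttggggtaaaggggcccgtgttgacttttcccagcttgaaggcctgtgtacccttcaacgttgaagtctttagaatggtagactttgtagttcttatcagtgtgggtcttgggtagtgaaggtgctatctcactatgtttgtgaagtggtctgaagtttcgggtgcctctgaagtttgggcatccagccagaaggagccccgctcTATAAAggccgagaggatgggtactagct

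Motif letters were searched on both strands of all 32851 RefSeq windows of this length. For ETS factors the letters were CCGGAAG, which 6.91% of windows held. For the PEA3 family they were AGGAAGT, held by 7.69%. For TCF/LEF proteins they were CTTTGAT, held by 3.21%. For GLI proteins they were ACCACCC, held by 3.92%. The E-box CACGTG was held by 6.02% and the TATA box TATAAA by 12.4%. Matches of different motifs shared bases in 26 of all windows and in 0 of the 12 windows of the genes that passed. Windows were found for 6 of the 11 lower and all 4 higher genes. The CTTTGAT of Sp5 starts 104 bases before the start, the AGGAAGT of Lin7a 23 bases before it and the TATAAA of Cym 29 bases before it. Bex4 holds CACGTG 9 bases before its start. Neither window of Etv5 holds any of the 6 motifs, nor do those of Tspan8, Tmem59l, Capn9, Upk3a and Pnliprp1. The window of the other Lin7a start, which is not shown, holds none of them either. These matches describe the letters only.

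Genes of the distal tip epithelium, the progenitor cells at the ends of the buds, were led by Sftpc (20389). It encodes surfactant protein C, which early in development is made by the tip cells. It read 11.44, 10.73 and 11.76 on the control arrays and 8.20, 8.46 and 8.69 on the LOF 9 h arrays. Every LOF 9 h array was lower by more than the range of the control arrays, and Sftpc fell by 2.86 ± 0.32 (adjusted p = 0.00905). In the tip list 13 of 16 genes stood below 0, with a median of -0.80 against -0.000 over all genes, and Etv5 and Sftpc passed. At an unadjusted p under 0.05 there were 11 lower and 0 higher genes of the 16, against 4.17% and 3.75% of all genes. Etv5, Sftpc, Id2 and Shh of this list also belong to the FGF10 signature, which the study chose on these arrays. The list itself was written with earlier results of these data known, so its direction is not independent evidence. Bmp7, a bone morphogenetic protein, read 9.16, 9.45 and 9.11 against 8.13, 8.63 and 8.45 (-0.84 ± 0.16, adjusted p = 0.168). Wnt7b, a WNT ligand of the epithelium, stood at -1.06 ± 0.24 (adjusted p = 0.252). Mycn, a growth regulator of the tips, stood at -0.59 ± 0.15 (adjusted p = 0.298) and Id2, an inhibitor of helix-loop-helix factors, at -0.95 ± 0.30 (adjusted p = 0.437). Sox9, the SOX factor of the tips, ranged from 6.22 to 7.68 in control and from 4.86 to 6.24 in LOF 9 h lungs. On this single feature, 1 of 10 for Sox9, the groups overlapped and the difference was -1.42 ± 0.43 (adjusted p = 0.418). Nkx2-1, which specifies the lung epithelium as a whole, stood at -0.33 and did not pass.

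Other surfactant genes were low without passing. Sftpb, surfactant protein B, read 6.52, 6.20 and 7.01 in control and 1.99, 2.41 and 3.25 in LOF 9 h lungs, the largest difference below 0 of any gene (-4.03 ± 0.83, adjusted p = 0.201). Sftpa1 read 5.13, 5.03 and 6.05 against 2.57, 2.46 and 2.97 (-2.73 ± 0.57, adjusted p = 0.201). The LOF 9 h levels of both lay around or below the array median, which leaves the size of these differences uncertain. The list of 21 surfactant and lamellar body genes had a median of -0.31 with 16 genes below 0, and Sftpc was the only member to pass. Of the 21, 6 were lower and 1 higher at an unadjusted p under 0.05 (4.17% and 3.75% of all genes). Sftpc, Sftpb and Sftpa1 also belong to the FGF10 signature that the study chose on these arrays.

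Markers of alveolar type 1 cells, the flat cells of the later gas exchange surface, went both ways (18 genes, 9 below and 9 above 0, median -0.00). At an unadjusted p under 0.05, 5 were lower and 3 higher (4.17% and 3.75% of all genes). Without overlap of the groups 6 were lower and 3 higher (7.83% and 7.61% of all genes). Within the list Gprc5a (232431), an orphan receptor inducible by retinoic acid, read 8.55, 8.92 and 8.98 against 6.94, 7.15 and 7.27 and fell by 1.70 ± 0.18 (adjusted p = 0.00707). Akap5, an anchor of protein kinase A, stood at -1.01 ± 0.17 (adjusted p = 0.108), Hopx, a homeodomain cofactor, at -1.45 ± 0.25 (adjusted p = 0.123) and Pdpn, podoplanin, at -0.64 ± 0.13 (adjusted p = 0.187). On the proximal side Sox2, the SOX factor of the airways, read 6.12, 6.59 and 6.16 against 6.60, 7.15 and 7.24 (0.70 ± 0.30, adjusted p = 0.591). The ETS factor Elf5 stood at 0.66 ± 0.20 (adjusted p = 0.426) and the forkhead factor Foxa3 at 0.97 ± 0.30 (adjusted p = 0.432). Of 17 proximal airway genes 9 were above 0 and 0 passed, with 3 higher and 0 lower at an unadjusted p under 0.05.

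General epithelial genes were split, and none of 24 passed. There were 15 below and 9 above 0, with a median of -0.17. At an unadjusted p under 0.05, 2 were lower and 3 higher. Keratin 8 (Krt8) stood at 0.49 ± 0.13 (adjusted p = 0.315) and Foxa1 at 0.46 ± 0.14 (adjusted p = 0.418). Claudin 7 (Cldn7) stood at -0.42 ± 0.14 (adjusted p = 0.466) and the epithelial regulator Grhl2 at -0.61 ± 0.21 (adjusted p = 0.478).

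**Figure D4:**
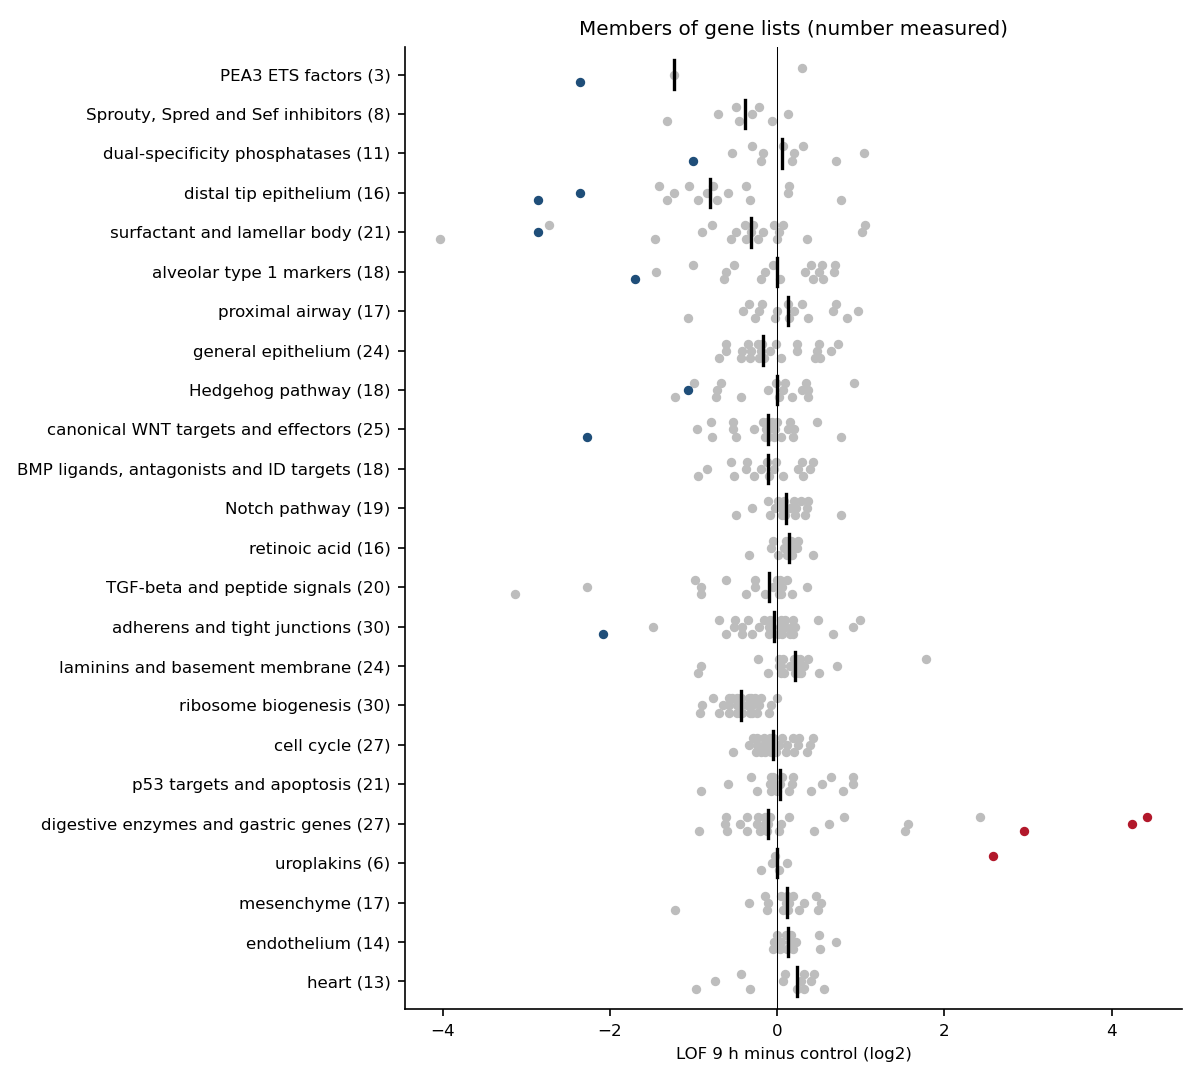
LOF 9 h minus control on the log2 scale for each measured member of 24 gene lists (points, spread vertically for visibility), with the list's median as a black bar and the number measured in brackets. Genes that passed are blue where lower and red where higher. The points of ribosome biogenesis lie at or below 0, and the 3 red points of the digestive list lie far from its median of -0.11.

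Gli1 (14632), the transcription factor that Hedgehog signalling induces in its target cells and that serves as its readout, read 10.33, 10.34 and 10.36 in control and 9.44, 9.30 and 9.08 in LOF 9 h lungs. The control arrays were almost equal and all LOF 9 h arrays were lower, by 1.07 ± 0.13 (adjusted p = 0.0156). It was the only one of 18 Hedgehog pathway genes to pass, and the median of the list was 0.00. Of the 18, 5 were lower and 1 higher at an unadjusted p under 0.05 (4.17% and 3.75% of all genes). The ligand Shh, from the epithelium, read 7.15, 6.79 and 6.51 against 5.87, 6.20 and 6.21 (-0.72 ± 0.17, adjusted p = 0.272). The forkhead genes Foxl1 and Foxf1, which Hedgehog signals sustain in mesenchyme, stood at -1.0 ± 0.23 (adjusted p = 0.258) and -1.22 ± 0.33 (adjusted p = 0.326), without overlap of the groups. The receptor gene Ptch1, another usual target, stood at -0.74 ± 0.36 (adjusted p = 0.682) with overlapping groups. Gli1, Shh, Foxl1 and Foxf1 are among the genes that the study chose on these arrays, so their direction is not independent evidence.

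Sp5 (64406), a zinc finger factor that WNT signals induce through TCF/LEF proteins, read 8.01, 8.41 and 8.02 in control and 5.76, 5.99 and 5.88 in LOF 9 h lungs and fell by 2.27 ± 0.24 (adjusted p = 0.00669). It was the only one of 25 canonical WNT genes to pass. In that list 18 genes stood below 0, with a median of -0.11. Of the 25, 6 were lower and 1 higher at an unadjusted p under 0.05 (4.17% and 3.75% of all genes). Apcdd1, a WNT inhibitor that is itself a target, stood at -0.96 ± 0.16 (adjusted p = 0.106). Sp5 and Apcdd1 also belong to the FGF10 signature that the study chose on these arrays. The TCF/LEF genes Tcf7 and Lef1 stood at -0.78 ± 0.18 (adjusted p = 0.256) and -0.52 ± 0.13 (adjusted p = 0.298), with no overlap of the groups. Axin2, a widely used WNT readout, read low and uneven, from 3.10 to 4.36 in control and from 1.81 to 3.86 in LOF 9 h lungs, and did not pass (adjusted p = 0.816). Of 30 WNT ligand and modulator genes 0 passed (3 lower and 5 higher at an unadjusted p under 0.05).

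No gene of the BMP, Notch or retinoic acid lists passed in limma. Of 18 BMP genes 12 were below 0 (median -0.11, 2 lower and 2 higher at an unadjusted p under 0.05). Of 19 Notch genes 14 were above 0 (median 0.10) and of 16 retinoic acid genes 13 were above 0 (median 0.14), in both with 0 at an unadjusted p under 0.05. Among 20 genes of TGF-beta and peptide signals 0 passed and 6 had an unadjusted p under 0.05, each of them lower (4.17% of all genes). Pthlh, a peptide by which the lung epithelium signals to mesenchyme, read 6.04, 6.04 and 6.42 against 1.76, 3.77 and 3.56 (-3.14 ± 0.71, adjusted p = 0.254). The LOF 9 h arrays of Pthlh were widely spread. The growth factor gene Hbegf stood at -0.91 ± 0.18 (adjusted p = 0.194) and secretin (Sct) at -0.91 ± 0.19 (adjusted p = 0.201). Pthlh and Sct are among the genes that the study chose on these arrays. This list of signals was also written with earlier results of these data known, so its direction is not independent evidence.

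Several genes known for membranes, polarity or neurons were among those that passed. Lin7a (108030), a PDZ scaffold of cell polarity complexes, read 7.19, 7.42 and 7.49 in control and 5.36, 5.27 and 5.23 in LOF 9 h lungs and fell by 2.08 ± 0.16 (adjusted p = 0.000663). Tspan8 (216350), a tetraspanin of the cell surface, read 6.64, 6.42 and 7.08 against 4.05, 4.30 and 4.47 and fell by 2.44 ± 0.22 (adjusted p = 0.00193). In both genes the LOF 9 h arrays were about equally low and far from control. The remaining members of the family, Lin7b and Lin7c, stood at 0.49 and -0.30 and did not pass. Among 30 junction genes Lin7a alone passed, with 15 below and 15 above 0. Ctnnd2, a catenin of neuronal junctions, stood at -1.48 ± 0.27 (adjusted p = 0.137) and the scaffold gene Tjp3 at 0.99 ± 0.28 (adjusted p = 0.348).

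Tmem59l (67937), a membrane protein gene expressed in brain, read 7.17, 7.37 and 7.12 against 5.11, 5.74 and 5.29 and fell by 1.84 ± 0.25 (adjusted p = 0.0306). Bex4 (406217), of a family of small brain-expressed X-linked proteins, read 11.16, 10.96 and 10.94 against 9.87, 9.39 and 9.58, a change of -1.40 ± 0.19 (adjusted p = 0.0303). Enc1 (13803), a kelch protein first known from neurons, read 10.28, 10.37 and 10.57 against 8.64, 9.18 and 9.35 and fell by 1.35 ± 0.19 (adjusted p = 0.0349). The 3 genes had high or middle levels in control lungs, so that their falls were measured well above the low end of the scale. These 3 and Lin7a belong to a list of 11 genes with known roles or expression in neurons, of which 11 stood below 0. That list was put together with results of these arrays known, so its direction is not independent evidence. The same holds for the genes of the FGF10 signature that the main text of the study names, which the study chose on these arrays. Of 30 measured, 30 stood below 0 (median -1.44) and 8 passed.

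The genes that rose were led by digestive enzymes. Cym (229697), chymosin, a milk-clotting protease of the infant stomach, read 7.98, 6.60 and 7.97 in control and 11.58, 12.12 and 12.11 in LOF 9 h lungs. Cym was thus well measured in control lungs already, and it rose by 4.42 ± 0.59 (adjusted p = 0.0303), or by 4.27 ± 0.45 when its 2 features were averaged (adjusted p = 0.00458). Pnliprp1 (18946), a relative of pancreatic lipase, read 2.72, 1.66 and 2.09 against 6.47, 6.70 and 6.04 and rose by 4.25 ± 0.36 (adjusted p = 0.00137). Capn9 (73647), a calpain protease of the digestive tract, read 2.25, 3.20 and 3.65 against 5.93, 6.39 and 5.65 and rose by 2.95 ± 0.39 (adjusted p = 0.0303). With the 2 features of Capn9 averaged the difference was 1.68 ± 0.37 and did not pass (adjusted p = 0.216). The control levels of Pnliprp1 lay below the array median and those of Capn9 around it, so the size of their rise is uncertain.

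The other digestive genes went both ways. With the 3 that passed, the list had 27 measured genes and a median of -0.11, with 7 higher and 2 lower at an unadjusted p under 0.05 and 7 higher and 4 lower without overlap of the groups. Over all genes 3.75% were higher and 4.17% lower at that p, and 7.61% and 7.83% without overlap. Of the 24 that did not pass, 15 stood below and 9 above 0, with 4 higher and 2 lower at an unadjusted p under 0.05. Of these 24 genes 14 read below the array median in both groups. Cblif, gastric intrinsic factor, read 2.48, 2.83 and 1.78 against 4.66, 4.99 and 4.71 (2.42 ± 0.41, adjusted p = 0.106). Colipase (Clps) read 4.77, 4.57 and 4.79 against 6.15, 6.43 and 6.23 (1.56 ± 0.29, adjusted p = 0.149), and Pnliprp2 stood at 1.53 ± 0.35 (adjusted p = 0.256). These 3 had no overlap of the groups. Pancreatic lipase itself (Pnlip) stood at -0.24 and trypsin (Prss1) at 0.79 (adjusted p = 0.698), both near the low end. The transcription factors of foregut and pancreas gave 0 calls among 10 genes, 8 of them below the array median in both groups. The list's mean level was 2.81 to 3.09 on control and 2.79 to 3.23 on LOF 9 h arrays.

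Upk3a (22270), a uroplakin that forms plaques on the surface of the urinary epithelium, read 2.22, 2.96 and 2.54 in control and 5.38, 5.06 and 5.03 in LOF 9 h lungs and rose by 2.58 ± 0.20 (adjusted p = 0.000663), from control levels below the array median. The other 5 uroplakin genes lay between -0.20 and 0.11, and 0 of them passed. Upk3b, a marker of the mesothelium that covers the lung, stood at 0.11, and of 10 mesothelial genes 0 passed.

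All 30 measured genes of ribosome biogenesis stood at or below 0, from -0.92 to -0.00, and 0 passed in limma. The median was -0.43 against -0.000 over all genes, 19 had an unadjusted p under 0.05 (4.17% of all genes on the lower side), and in 22 the groups did not overlap (7.83% of all genes). Like the other lists, this one was written with earlier results of these data known, so its direction is not independent evidence. Rrs1, Rrp9 and Dhx33 also belong to the signature that the study chose on these arrays. The mean level of the list was 9.85, 9.87 and 9.88 on the control arrays and 9.41, 9.48 and 9.45 on the LOF 9 h arrays. The list mean was thus lower on every LOF 9 h array than on every control array, while the size of the difference varied between genes. Rrs1, needed to assemble the large subunit, read 9.50, 9.42 and 9.66 against 8.82, 8.82 and 8.85 (-0.69 ± 0.13, adjusted p = 0.175). Dhx33, a helicase of ribosomal RNA transcription, stood at -0.57 ± 0.11 (adjusted p = 0.187), Rrp9, of ribosomal RNA processing, at -0.90 ± 0.19 (adjusted p = 0.22) and Gar1, of the pseudouridylation complex, at -0.57 ± 0.15 (adjusted p = 0.306). Nucleophosmin (Npm1) stood at -0.00 and fibrillarin (Fbl) at -0.07. Of the 29 promoter windows found for the list, 17.2% held CCGGAAG and 20.7% AGGAAGT, against 6.91% and 7.69% of all windows, and 6.9% held CACGTG against 6.02%. The ETS letters were in 5 and the PEA3 letters in 6 of the 29 windows, which belong to 25 genes. The GLI letters were in 6.9% of them against 3.92% of all windows, and the TCF/LEF letters in 0% against 3.21%. These small counts were not compared by a test. Whether ETS factors act on the genes of the list was not tested. Of 13 genes of the MYC network 4 stood below and 9 above 0 (median 0.09), and 0 passed. At an unadjusted p under 0.05, 1 was lower and 1 higher. The list ranged from -0.59 to 0.82 ± 0.21 for Mxd4, an antagonist of MYC (adjusted p = 0.298). A part of these genes in the ribosome list was not tested.

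Growth and death programmes gave no call. Among 27 cell cycle genes the median was -0.05, with 2 lower and 2 higher at an unadjusted p under 0.05, and cyclin D1 (Ccnd1) stood at -0.53 ± 0.20 (adjusted p = 0.522). Among 21 p53 target and apoptosis genes the median was 0.03. Within it Bid, a death-promoting relative of BCL2, stood at -0.91 ± 0.17 (adjusted p = 0.162) and the nuclease gene Aen at -0.59 ± 0.12 (adjusted p = 0.201), while Trp53inp1 stood at 0.79 ± 0.22 (adjusted p = 0.344) and Bbc3 (PUMA) at 0.91 ± 0.28 (adjusted p = 0.428). Hexokinase 2 (Hk2) read 8.54, 8.80 and 8.50 against 7.76, 7.58 and 7.30 (-1.07 ± 0.23, adjusted p = 0.213), and the 22 glycolysis and hypoxia genes had a median of -0.03. Of 24 laminin and basement membrane genes 20 stood above 0 with a median of 0.21, and 0 passed. Among them 0 were higher and 1 lower at an unadjusted p under 0.05 (3.75% and 4.17% of all genes). The lower gene was Lama3, a laminin chain of epithelial basement membranes, at -0.91 ± 0.20 (adjusted p = 0.224). Itga8, an integrin chain of mesenchyme, read 9.62, 9.49 and 9.59 against 10.23, 10.22 and 10.29 (0.68 ± 0.12, adjusted p = 0.106).

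In the lists of other cell types 0 genes passed. Of 14 endothelial genes 12 stood above 0 (median 0.13, list means 8.05 to 8.18 on control and 8.10 to 8.46 on LOF 9 h arrays). Among them 3 were higher and 0 lower at an unadjusted p under 0.05 (3.75% and 4.17% of all genes). Of 17 mesenchyme genes 12 stood above 0 (median 0.12), of 9 smooth muscle genes 7 (median 0.19) and of 13 heart genes 9 (median 0.24). Skeletal muscle had 10 of 11 genes below 0 with a median of -0.35, at list means of 3.08 to 3.81 on control and 3.00 to 3.24 on LOF 9 h arrays. Liver had 6 of 10 genes below 0 with a median of -0.31, also at low levels. The part of these cell types in the changes above was not tested.

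The same LOF 9 h arrays were then set against LOF lungs after 6 h, to test whether a change differed between both times. By Xist, given above, these groups did not overlap, so a difference by embryo sex cannot be told apart from one by time. The Y-linked gene Eif2s3y read 3.31, 7.74 and 7.59 at 6 h and 2.08, 2.13 and 2.89 at 9 h. LOF 6 h array 1 was thus low in both genes, and Eif2s3y sets it nearer the 9 h arrays than Xist does. The Y-linked covariate averages Eif2s3y with Uty and Kdm5d, which read near the low end. Heart genes also differed, with list means of 7.01 to 7.78 at 6 h and 5.99 to 6.87 at 9 h, and their part in the calls was not tested. Of all genes 13 differed (0.0627%), 10 higher and 3 lower at 9 h, and among the 15 genes above Pnliprp1 alone did. With the Y-linked covariate 1 of the 13, Snhg16, was called. Pnliprp1 read 4.37, 3.23 and 3.31 at 6 h and stood 2.77 ± 0.36 higher at 9 h (adjusted p = 0.0326). This call was lost in 7 of 12 fits with 1 array left out, namely control array 3, LOF 6 h arrays 2 and 3, any LOF 9 h array or GOF array 3 (adjusted p from 0.0331 to 0.143 over the 12), and with that covariate (adjusted p = 0.0705). Capn9 at 2.58 ± 0.39, Gli1 at -0.83 ± 0.13 and Dusp9 at -0.90 ± 0.14 lay next to the threshold (each adjusted p = 0.0558). Gli1 read 10.16, 10.08 and 10.07 and Dusp9 7.91, 7.79 and 7.59 at 6 h, close to their control values. Etv5 differed by -0.49 ± 0.16 (adjusted p = 0.337) and Gprc5a by -0.25 ± 0.18 (adjusted p = 0.698). For these genes a difference between both times was not shown. The other 12 genes that differed were not among the 15.

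Lungs labelled GOF had doxycycline for as long as the LOF 9 h lungs, and the difference from them is taken without the control levels. It shares the LOF 9 h arrays, and the spread over all 12 arrays, with the first comparison and is not independent of it. Of all genes 58 differed (0.28%), 35 lower and 23 higher in LOF 9 h lungs, and the 15 genes above were among them, each in the same direction. The count was 31, 47 and 36 without control array 1, 2 or 3. Heart genes had list means of 5.36 to 6.00 in lungs labelled GOF against 5.99 to 6.87 in LOF 9 h lungs (median of the list 1.04), and smooth muscle genes 8.31 to 9.30 against 9.33 to 9.55 (median 0.62). With the Y-linked covariate 21 genes were called. The part of these markers in the calls was not tested. Etv5 read 12.61, 12.55 and 12.98 in GOF lungs and the contrast was -2.42 ± 0.16 (adjusted p = 0.00033). Cym read 3.97, 6.16 and 5.89 in GOF lungs, below its control values, and the contrast was 6.59 ± 0.59 (adjusted p = 0.00151). Sftpb, which did not pass against control, read 10.35, 6.72 and 6.55 in lungs labelled GOF, with array 1 far above the other two, and the contrast was -5.32 ± 0.83 (adjusted p = 0.0376). Without that array it was -4.08 (adjusted p = 0.0045), and the call was lost in 10 of 12 fits with 1 array left out. Bmp7 at -1.09 ± 0.16 (adjusted p = 0.0269), Rrs1 at -0.81 ± 0.13 (adjusted p = 0.0467), Dusp8 at 1.68 ± 0.24 (adjusted p = 0.0246), Itga8 at 0.74 ± 0.12 (adjusted p = 0.0376) and Hk2 at -1.44 ± 0.23 (adjusted p = 0.0376) passed as well. These calls were lost in 8 of the 12 fits for Bmp7, 6 for Dusp8, 11 for Hk2 and 12 for Rrs1 and Itga8. Among the 15 genes, Sftpc lost its call in 7, Capn9 in 4, Enc1 in 2, and Bex4, Dusp9 and Tmem59l in 1. Apcdd1 did not pass, at -0.07 ± 0.16 (adjusted p = 0.927), with a mean of 4.28 in GOF lungs and 4.21 in LOF 9 h lungs.

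**Figure D5:**
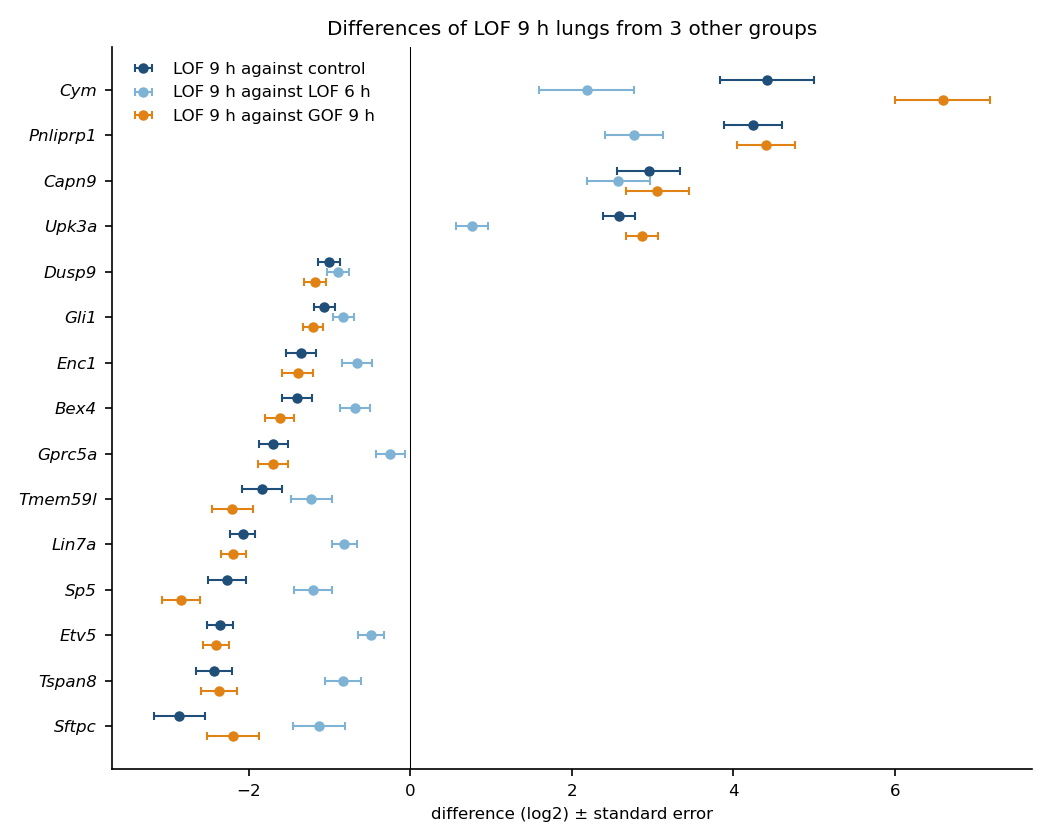
Differences of LOF 9 h lungs from control (dark blue), from LOF 6 h (light blue) and from GOF 9 h lungs (orange) for the 15 genes, on the log2 scale with standard errors (n = 3 arrays per group). The control and GOF contrasts lie on the same side of 0 in all 15, and Pnliprp1 is the only gene of the 15 whose contrast with LOF 6 h passed.

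The calls differed in how far they rested on single arrays. Over 12 fits that each lacked a different array, Etv5, Lin7a, Sp5, Tspan8, Pnliprp1 and Upk3a lost their call in 0, Gprc5a in 1, Sftpc in 2, Gli1 in 5, Capn9 and Tmem59l in 7, Cym and Dusp9 in 8, Bex4 in 9 and Enc1 in 11. The count of 15 was 7, 7 and 9 without control array 1, 2 or 3, 9 without LOF 6 h array 2, 8 without LOF 9 h array 3, and 33 and 9 without GOF array 1 or 3. In a fit of the 6 compared arrays alone 4 genes passed.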

How the data were processed

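Total RNA from embryonic mouse lungs was amplified, labelled with Cy3 and hybridized to 12 one-colour Agilent arrays, 3 per group, with groups taken from the sample labels. The authors, as their methods state, used limma to correct the background (normexp, with the negative control spots), to take logarithms and to quantile-normalize. The deposited values are log2 intensity for 62976 features per array, and 10 values were missing. The values carry no background flags, so features around the array median of 2.98 are described as low. The processed values keep no scanner depth, and the number of arrays limits the precision (median standard error 0.265).

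Features were named from the platform annotation with current mouse symbols. Of all features 31465 had 1 symbol, and each of 20738 genes was read by its feature of highest mean across the 12 arrays. Features without a name, 31511 in all, were tested apart. The fit (limma 3.58.1, R 4.3.3) gave every array of the series its group mean, 4 in all, and was moderated by eBayes (8 residual degrees of freedom, 2.27 from the prior). P-values are two-sided and Benjamini-Hochberg adjusted over all genes of a comparison, with a threshold of 0.05.

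The members, 51 gene lists (871 entries, 837 measured) and tests were chosen with earlier results of these data known. Lists are described by counts and medians. Named are the genes that passed (up to 20 per direction by size), the transgene check, the members of smallest p in each list (up to 4), list members named in the text of the study, and unnamed features that passed. Clps, Pnliprp2, Pnlip, Prss1, Dusp6, Ptch1, Axin2, Lin7b, Lin7c, Npm1, Fbl, Upk3b and Snhg16 were named outside this rule after their values were seen. Alternatives were median centring, cyclic loess, the mean of all features of a gene, keeping genes above the 25th or 50th percentile of level, trend and robust moderation, array weights, smaller sets of arrays, a Y-linked covariate, the replicate number as a block, and leaving out each array.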

Additional observations from a re-analysis of the deposited data

Results flagged for a closer look

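The level of Pnliprp1 differed between the LOF 9 h and LOF 6 h arrays. It stood 2.77 (log2) higher at 9 h than at 6 h (limma, adjusted p = 0.0326), with 6.47, 6.70 and 6.04 on the arrays at 9 h and 4.37, 3.23 and 3.31 at 6 h. The call was lost in 7 of 12 fits with 1 array left out and with the compared groups alone (adjusted p = 0.138). It was also lost with the replicate block (adjusted p = 0.0747) and with the Y-linked covariate (adjusted p = 0.0705). By Xist these groups did not overlap, so time and embryo sex cannot be told apart. Groups of 3 arrays were too small to look for outlying arrays by a test of the gap.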

How the results depend on the processing

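The count of 15 genes against control was 55 with only genes above the median level, 104 with trend and robust moderation, 25 with array weights, 24 with only control and LOF arrays and 4 with the compared groups alone, and it ranged from 7 to 33 with 1 array left out. Of the 104, 15 were shared with the main calls, and of the 55, 12. The count of 13 against LOF 6 h was 27 and 116 with genes above the 25th percentile and the median, 161 with trend and robust moderation, 37 with array weights, 0 with the compared groups alone (limma, where 2106 genes had an unadjusted p under 0.05 in the main fit), 1 with the Y-linked covariate and 5 with the replicate block, and it ranged from 1 to 49 with 1 array left out. The count of 58 against GOF lungs was 143 and 452 with the same filters, 500 with trend and robust moderation, 16 with the compared groups alone, 21 with the Y-linked covariate and 22 with the replicate block, and it ranged from 13 to 61. The 2 unnamed features gave 1 to 2 calls with 1 array left out and 2 with the replicate block. The cause of these shifts was not tested.

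Same-numbered control and LOF 9 h arrays deviated together with correlations of 0.10, 0.05 and 0.04, and other-numbered ones with -0.09 to 0.04. The arrays were therefore not treated as pairs, and whether they shared litters is not known. With the replicate block 11 genes passed against control, 10 of them among the 15, without Cym, Tmem59l and Capn9 (each adjusted p = 0.165), Enc1 (0.108) and Dusp9 (0.0776). Single genes kept their side of the threshold in 4180 of the values recomputed, lost it in 83 and crossed it in 55, and no direction of a called gene turned. Medians of lists moved by more than the spread between arrays in 73 of the recomputed values. Low features limit what can be said of the size of change of feature 23436, Pnliprp1, Capn9, Upk3a, Sftpb and Sftpa1.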
